A study of Homo sapiens with 18 samples.

Results

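The knockdown of CTNNB1, the gene of β-catenin, was profiled in HSC-3 cells, an established line of metastatic human oral squamous cell carcinoma. Its members are the 6 arrays, of 18 in the series, whose titles name an siRNA: 3 of HSC-3 cells on CTNNB1 siRNA and 3 of HSC-3 cells on control siRNA. Cells in separate wells were reverse transfected with a 25 nM pool of siRNAs against CTNNB1 or with 25 nM of a non-targeting pool, without other treatment, and RNA was hybridized to Affymetrix Human Gene 2.0 ST arrays 48 to 64 h after treatment by the sample records, while the methods for the knockdown state 48 h. Of the other arrays, 6 are used below for comparison, with HSC-3 cells on 10 μM ICG-001 in 0.1% DMSO (3 arrays) and on DMSO alone (3 arrays). The remaining 6 are of a second line, CAL27, on ICG-001 at that dose or on DMSO (3 arrays each). They enter only the intensity filter of the tests with ICG-001 and 1 fit over all 18 arrays. ICG-001, a small molecule, keeps β-catenin from its coactivator CBP, an acetyltransferase. The knockdown is transient and of 1 line, and since separate cultures are not stated anywhere in the sources, the p-values speak only of how far wells spread, which may be technical.

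β-catenin works in different places of a cell. At the cell membrane it ties the cytoplasmic tail of E-cadherin to α-catenin and the actin cytoskeleton, and in the nucleus it is a coactivator of the TCF/LEF transcription factors. Without a Wnt signal, free β-catenin is marked for degradation by a destruction complex of AXIN, APC and the kinases CK1 and GSK3, and a Wnt ligand bound to a Frizzled receptor and LRP5 or LRP6 stops that. Among the genes it is known to activate are feedback regulators of the pathway itself, such as AXIN2, LEF1 and DKK1. The siRNA comparison asks which transcripts differ once the CTNNB1 transcript is reduced.

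All values are log2 expression values, with 1 probeset per gene, and a fold change is CTNNB1 siRNA over control siRNA. A gene was tested with limma where any 1 of the 6 arrays had it over that array's median, and p-values were adjusted over these 12682 of 23786 genes. The standard error of a log2 fold change had a median of 0.082 and the 95% confidence interval a median half-width of 0.19. The interval lay inside a 1.5-fold change in either direction for 11907 tested genes (93.9%). The array medians ran from 4.68 to 4.73, and arrays of the same group correlated at 0.9948 to 0.9953, against 0.9940 to 0.9950 between the groups. Markers of squamous epithelium were well above the array medians on all 6 arrays. The 5 of 8 markers named in the table (CDH1, EPCAM, KRT5, KRT14 and SFN) lay between 9.78 and 11.64 with CTNNB1 siRNA and between 9.55 and 11.70 with control siRNA. No marker of endothelium or melanocytes reached the array median, and 1 of 6 fibroblast markers (COL1A1) and 1 of 4 leukocyte markers (CD68) did.

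CTNNB1 was the targeted transcript, and it had the largest change on the arrays. It read 7.35, 6.90 and 7.25 on the CTNNB1 siRNA arrays and 10.22, 10.26 and 10.19 on the control siRNA arrays. All CTNNB1 siRNA arrays were far below all control arrays, as their labels say. CTNNB1 fell by 3.06 on the log2 scale (standard error 0.12, 95% confidence interval -3.34 to -2.77, adjusted p = 0.000495 from limma), which left 12.0% of the control level. By array, 13.6%, 9.97% and 12.7% of the control mean remained. The second CTNNB1 siRNA array was the lowest, and the spread between the 3 knockdown wells (SD 0.24) was wider than that between the control wells (SD 0.04). JUP encodes γ-catenin (plakoglobin), the closest relative of β-catenin, which can take its place in adherens junctions. It read 9.82, 9.82 and 9.83 with CTNNB1 siRNA, against 9.73, 9.68 and 9.55 with control siRNA. JUP was thus a little above control on every array, but its log2 fold change of 0.17 did not pass (95% interval 0.0019 to 0.34, adjusted p = 0.539 from limma).

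Beyond the target, few genes passed a test. At the strict thresholds, which are those of the study's signatures (adjusted p no higher than 0.01 and a change of 1.5-fold or more), CTNNB1 was the only gene called (0.00789% of the tested genes), and no gene was called higher. At the wide threshold, an adjusted p no higher than 0.05 whatever the fold, 11 genes were called (0.0867%), 1 higher (0.00789%) and 10 lower (0.0789%). In the next gene the adjusted p was 0.117. In 50 tested genes the fold was at least 1.5, with 9 of them higher and 41 lower, and in 2 genes it reached 2, CTNNB1 and CDS2. The first principal component of the tested genes, with 32.0% of the variance, had scores of 5.09, 12.6 and 6.08 for the CTNNB1 siRNA arrays and of -6.69, -9.58 and -7.51 for the control arrays, so the groups lay apart on it. The second CTNNB1 siRNA array, which held the least CTNNB1, had the most extreme score, and the second control array was the most extreme of the controls. CTNNB1 was itself among the genes scored, and a relation of the score to its level was not tested.

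**Figure D1:**
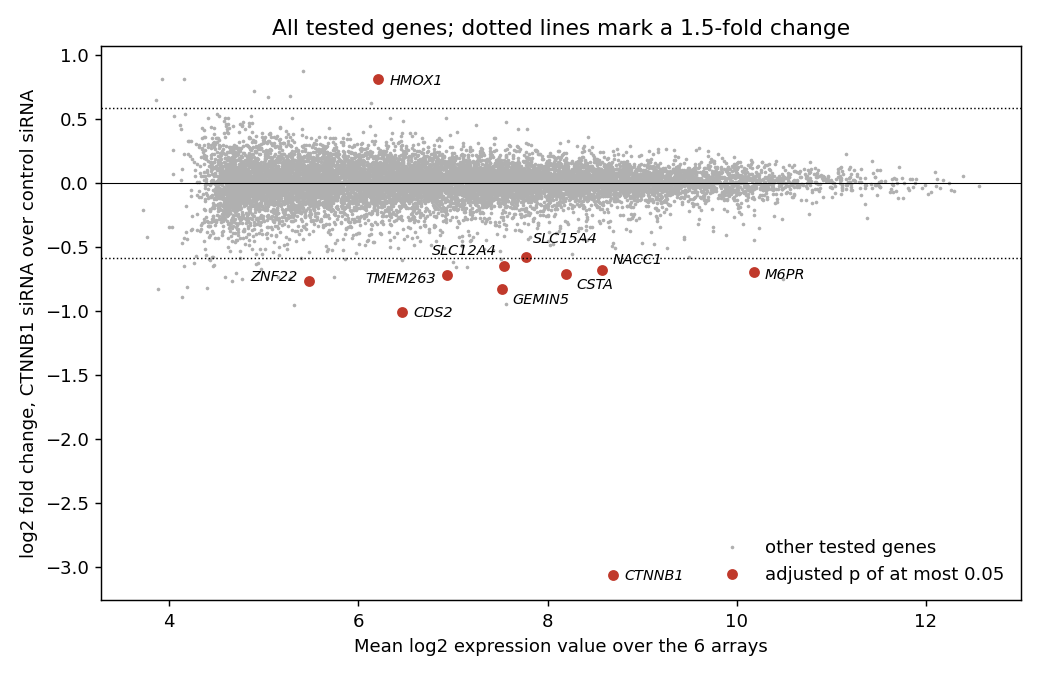
Log2 fold change, CTNNB1 siRNA over control siRNA (vertical), against the mean log2 value over the 6 arrays (horizontal) for the 12682 tested genes, with the 11 genes called at the wide threshold in red and named, and dotted lines at a 1.5-fold change. CTNNB1 stands alone at -3.06, and the other named genes lie between -1.01 and 0.81.

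The 10 other genes that passed have different roles, and none of them is in the lists of Wnt pathway genes and targets. In 9 of them the level fell to between 49.8% and 66.9% of control, and in HMOX1 it rose. The groups did not overlap in any of them, which held for 19.1% of all tested genes. With 3 arrays per group, genes with p-values this small rarely overlap, so the separation is no further support. The SD within a group was at most 0.12. On the second CTNNB1 siRNA array 6 of the 10 genes were farthest from the control mean, against 1 on the first and 3 on the third. All 10 calls rest on the full set of 6 arrays: when any single array was left out, none of these genes passed at the wide threshold, although each kept its direction.

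CDS2 makes CDP-diacylglycerol, the precursor of phosphatidylinositol, in the endoplasmic reticulum. It read 6.03, 5.91 and 5.95 with CTNNB1 siRNA, against 6.98, 6.90 and 7.01 with control siRNA. CDS2 fell to 49.8% of control (log2 fold change -1.01, standard error 0.07, adjusted p = 0.0124 from limma), and its spread within either group was a small part of this gap. GEMIN5 recognizes small nuclear RNAs for the SMN complex, which builds spliceosomal particles. It read 7.19, 7.04 and 7.08 with CTNNB1 siRNA, against 7.90, 7.98 and 7.91 with control siRNA. The level fell to 56.3% of control (log2 fold change -0.83, adjusted p = 0.0326 from limma). NACC1 is a transcriptional corepressor with a BTB domain, and ZNF22 is a zinc finger protein that binds DNA. NACC1 read 8.25, 8.21 and 8.24 with CTNNB1 siRNA, against 9.01, 8.89 and 8.84 with control siRNA, and fell to 62.6% of control (adjusted p = 0.0417 from limma). ZNF22 read 5.06, 5.04 and 5.18 with CTNNB1 siRNA, against 5.77, 5.91 and 5.90 with control siRNA, and fell to 58.9% of control (adjusted p = 0.0378 from limma). Neither gene overlapped between the groups.

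Another 3 genes encode proteins of lysosomal traffic or of membrane transport. M6PR is the cation-dependent mannose 6-phosphate receptor, which carries new hydrolases to the lysosome. It read 9.82, 9.87 and 9.81 with CTNNB1 siRNA, against 10.54, 10.47 and 10.57 with control siRNA. All 3 knockdown values were below all 3 control values, and M6PR fell to 61.9% of control (log2 fold change -0.69, adjusted p = 0.0378 from limma). SLC15A4 is a lysosomal transporter of histidine and small peptides that serves endosomal Toll-like receptors. It read 7.46, 7.47 and 7.52 with CTNNB1 siRNA, against 8.11, 8.02 and 8.06 with control siRNA, and fell to 66.9% of control (adjusted p = 0.048 from limma). This was the smallest of the called changes, just under 1.5-fold. SLC12A4 is the potassium chloride cotransporter KCC1, which takes part in cell volume control. It read 7.22, 7.24 and 7.18 with CTNNB1 siRNA, against 7.81, 7.86 and 7.93 with control siRNA, and fell to 63.7% of control (adjusted p = 0.0404 from limma).

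CSTA encodes cystatin A, an inhibitor of cysteine proteases in the cornified envelope of squamous epithelium. It read 7.88, 7.78 and 7.84 with CTNNB1 siRNA, against 8.60, 8.47 and 8.57 with control siRNA, and fell to 61.1% of control (log2 fold change -0.71, adjusted p = 0.0378 from limma). TMEM263, a transmembrane protein, read 6.55, 6.71 and 6.48 with CTNNB1 siRNA, against 7.33, 7.28 and 7.29 with control siRNA, and fell to 60.7% of control (adjusted p = 0.048 from limma). HMOX1 encodes heme oxygenase 1, which breaks down heme and is a target of the oxidative stress factor NRF2. It read 6.62, 6.70 and 6.52 with CTNNB1 siRNA, against 5.89, 5.72 and 5.81 with control siRNA. HMOX1 was the only gene that rose at the wide threshold, to 175% of control (log2 fold change 0.81, standard error 0.08, adjusted p = 0.0378 from limma).

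**Figure D2:**
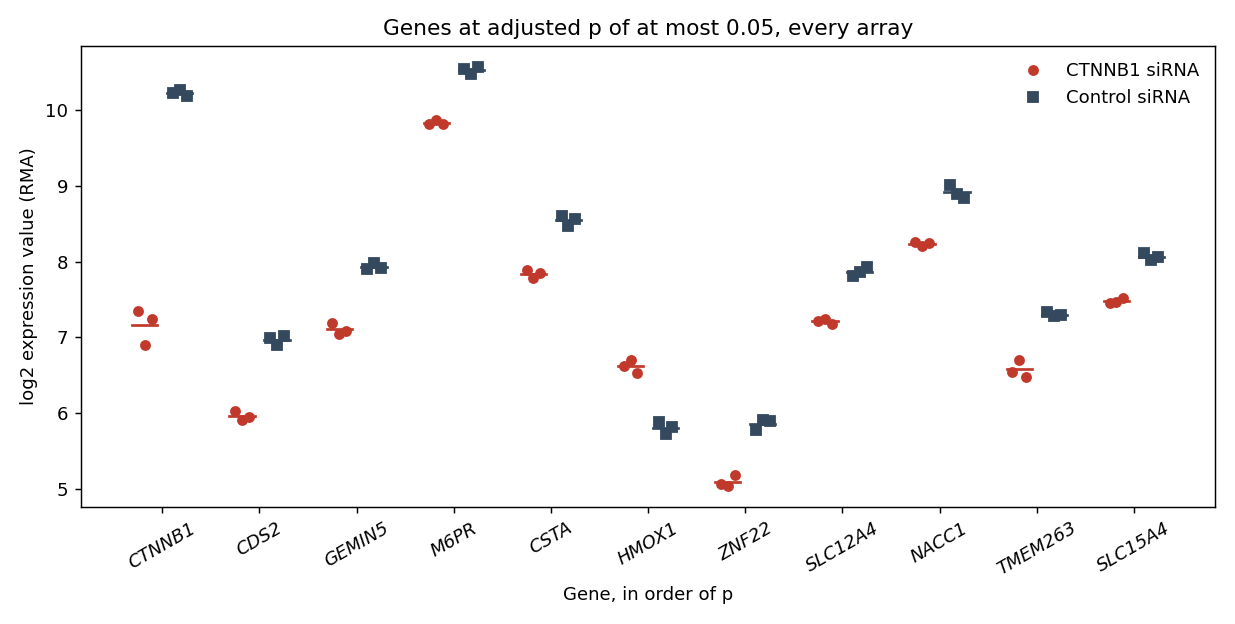
Log2 expression value (vertical) of the 11 genes called at the wide threshold on each of the 3 CTNNB1 siRNA arrays (red circles) and the 3 control siRNA arrays (dark squares), with a line at each group mean and genes in order of p. The groups are apart for every gene, CTNNB1 siRNA is the lower for 10 genes and the higher for HMOX1, at 6.52 to 6.70 against 5.72 to 5.89.

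No feedback target of Wnt signaling passed. Of 22 such genes, 21 are named in the table and 10 were tested, of which 0 rose and 0 fell at the wide threshold. Their log2 fold changes ran from -0.41 to 0.23 with a median of -0.01, beside a median of 0.0077 over all tested genes. The interval lay inside a 1.5-fold change for 9 of the 10, all but LEF1. LEF1, a partner of β-catenin on DNA and a target of it, read 4.49, 4.93 and 4.61 with CTNNB1 siRNA, against 5.23, 5.12 and 4.91 with control siRNA. The second CTNNB1 siRNA array was above the third control array, so the groups overlapped. LEF1 had a log2 fold change of -0.41 (95% interval -0.73 to -0.09), with an unadjusted p of 0.0193 and an adjusted p of 0.44 from limma. The values of DKK1, a secreted antagonist that binds LRP6, overlapped as well. It read 9.51, 9.48 and 9.57 with CTNNB1 siRNA, against 9.52, 9.43 and 9.51 with control siRNA, and the interval of its log2 fold change, -0.12 to 0.19, lay inside a 1.5-fold change. RNF43, a ubiquitin ligase that removes Frizzled receptors, had a log2 fold change of 0.08 (interval -0.11 to 0.27).

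The other 11 named feedback genes, among them AXIN2, LGR5, NKD2, NOTUM, SP5 and ZNRF3, were below the array median on all 6 arrays and were not tested. AXIN2, the standard readout of the pathway, read 3.74, 3.72 and 3.69 with CTNNB1 siRNA, against 3.71, 3.73 and 3.61 with control siRNA, so the groups overlapped. NOTUM, a secreted enzyme that inactivates Wnt ligands, read 4.01, 3.95 and 3.91 with CTNNB1 siRNA, against 4.20, 4.20 and 4.23 with control siRNA. It was the only 1 of these 11 whose groups did not overlap, beside 19.1% of all tested genes. NOTUM was named after its values were seen.

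TCF/LEF factors bind DNA at the core letters CTTTG, and a longer form of the site is CTTTGAT. In the RefSeq promoters of GRCh38.p14, 42.1% of 35116 entries hold CTTTG on either strand in the 250 bases before the start, and 2.26% hold CTTTGAT. Of the 11 called genes, 9 have an entry, and the core is in those of M6PR and SLC15A4. Of the 10 tested feedback targets, 5 have an entry, and it is in those of LEF1, DKK1, RNF43 and LGR6. The longer form is in none of these entries. The windows of 30 bases below set the 2 called genes that hold the core beside 2 feedback genes, in the direction of the gene and with the core in capitals, where CAAAG is the core on the other strand. M6PR (chr12:8949498-8949527, minus strand) and SLC15A4 (chr12:128824172-128824201, minus strand) fell, and LEF1 (chr4:108166408-108166437, minus strand) and DKK1 (chr10:52314174-52314203, plus strand) did not pass. DKK1 has 3 matches, of which 1 is shown. With the core in so many promoters, a match is a description and no site.
M6PR: ggggattctgagCTTTGgctactccagttt
SLC15A4: caaaaaggcaaaCAAAGgctctcggccgcc
LEF1: gccttttccctcCAAAGaaacttggaggat
DKK1: cccctcccagcgCTTTGaaatcccatcccg

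Among 21 tested TCF/LEF factors, coactivators and corepressors, 0 passed at the wide threshold, 2 had an unadjusted p under 0.05 with a higher level and 3 with a lower level. Of all tested genes, 4.11% were higher and 5.13% lower at that unadjusted p. Both of the higher genes encode small proteins that bind β-catenin itself and keep it from TCF/LEF factors. CBY1 (chibby) read 7.02, 7.07 and 7.05 with CTNNB1 siRNA, against 6.76, 6.68 and 6.69 with control siRNA. Its log2 fold change was 0.34 (95% interval 0.19 to 0.48, adjusted p = 0.209 from limma). CTNNBIP1 (ICAT) read 7.74, 7.63 and 7.76 with CTNNB1 siRNA, against 7.43, 7.48 and 7.53 with control siRNA (log2 fold change 0.23, adjusted p = 0.398 from limma). The groups did not overlap in either gene, but neither passed. Of the 21 genes, 2 were higher and 5 lower without overlap, beside 9.83% and 9.24% of all tested genes. The 3 lower at an unadjusted p under 0.05 were BCL9L, CDC73 and LEF1, with log2 fold changes of -0.15, -0.14 and -0.41. CREBBP and EP300, the acetyltransferases CBP and p300 that β-catenin recruits, both had a log2 fold change of -0.02, and TCF7L2, the TCF factor best known from the gut, had one of -0.18 (interval -0.36 to 0.01).

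Around β-catenin, the parts of the pathway that make, receive and relay the signal had no gene that passed. The destruction complex had 19 tested members with a median log2 fold change of 0.02 and a range of -0.21 to 0.13, and the interval of all 19 lay inside 1.5-fold. GSK3B, the kinase that marks β-catenin, had a log2 fold change of 0.07, and APC, its scaffold, one of -0.03. Only AMER1, which links APC to the membrane, had an unadjusted p under 0.05 (log2 fold change -0.15, adjusted p = 0.52 from limma). That p held for 9.24% of all tested genes. Of 11 tested ligands and ligand carriers, WNT5A alone had such a p. This gene of a noncanonical Wnt ligand read 7.44, 7.60 and 7.53 with CTNNB1 siRNA, against 7.73, 7.72 and 7.71 with control siRNA (log2 fold change -0.20, adjusted p = 0.454 from limma). Of 14 receptors, only the Frizzled receptor FZD2 had one, with 7.02, 7.15 and 7.02 against 7.35, 7.24 and 7.28 on the control arrays (log2 fold change -0.23, adjusted p = 0.406 from limma). WNT7A, a ligand of keratinocytes, averaged 8.76 ± 0.03 with CTNNB1 siRNA and 8.78 ± 0.10 with control siRNA (SD, n = 3 each), a log2 fold change of -0.01. None of the ligands, receptors or antagonists passed.

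Other reported targets of β-catenin went both ways. Of 34 tested, 0 passed at the wide threshold, and the median log2 fold change was 0.02. At an unadjusted p under 0.05, 3 were higher and 2 lower, beside 4.11% and 5.13% of all tested genes. BMP4, a growth factor that instructs epithelia and mesenchyme, was the lowest. It read 8.74, 8.74 and 8.82 with CTNNB1 siRNA, against 9.13, 9.19 and 9.39 with control siRNA (log2 fold change -0.47, 95% confidence interval -0.68 to -0.27, adjusted p = 0.209 from limma). CCND1, the G1 cyclin often cited as a target, read 11.26, 11.25 and 11.30 with CTNNB1 siRNA, against 11.49, 11.39 and 11.43 with control siRNA, a log2 fold change of -0.17 (adjusted p = 0.491 from limma). Neither gene overlapped between groups. Of the 34, 6 were higher and 4 lower without overlap, beside 9.83% and 9.24% of all tested genes. On the other side stood FN1, the gene of fibronectin, with 8.38, 8.45 and 8.31 against 8.11, 8.02 and 8.03 on the control arrays (log2 fold change 0.33, adjusted p = 0.252 from limma). L1CAM, a cell adhesion molecule, had a log2 fold change of 0.24 and S100A4, a calcium-binding protein, one of 0.39, and neither passed.

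**Figure D3:**
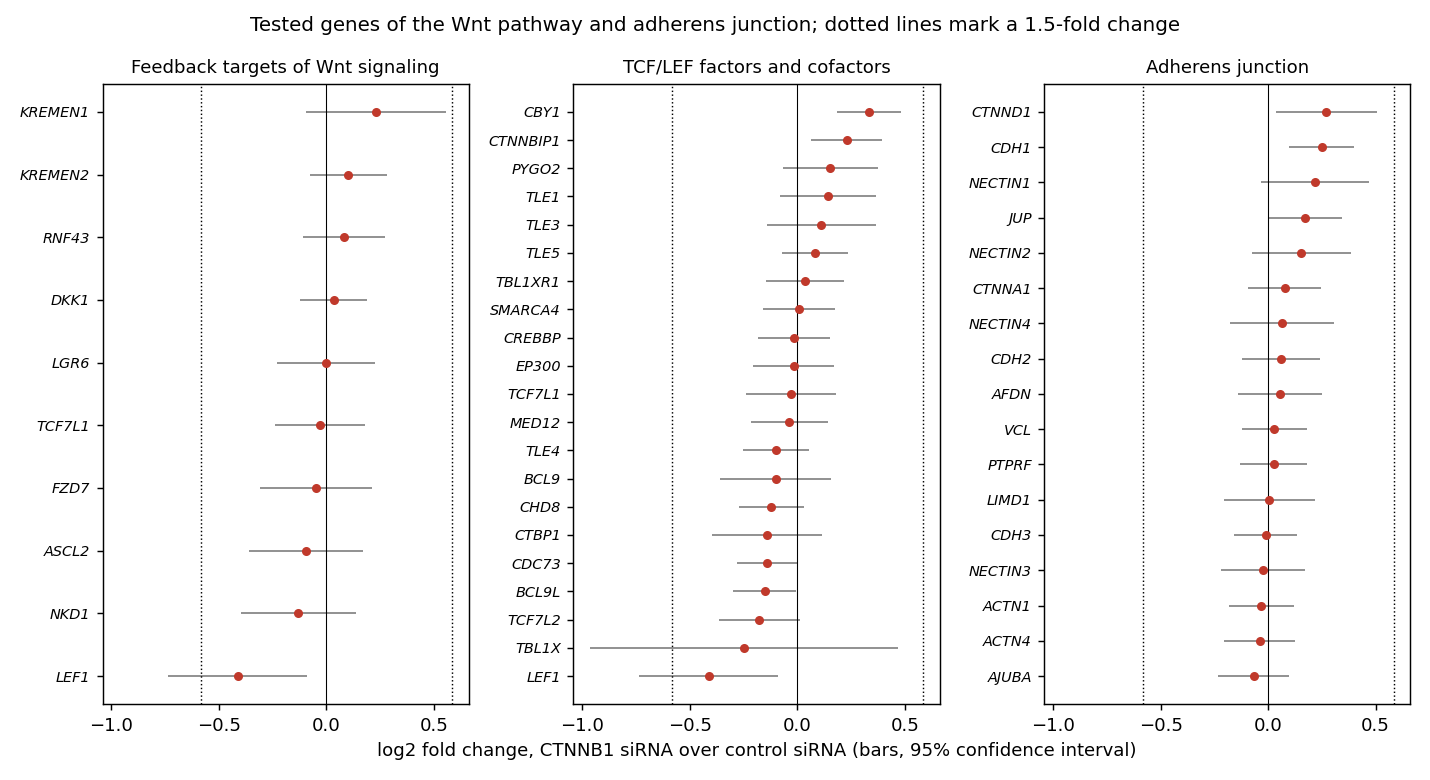
Log2 fold change, CTNNB1 siRNA over control siRNA (horizontal), of the tested feedback targets of Wnt signaling (left), TCF/LEF factors and their cofactors (middle) and genes of the adherens junction (right), with 95% confidence intervals as bars and dotted lines at a 1.5-fold change. All points lie inside the dotted lines, and LEF1 at -0.41 and CBY1 at 0.34 stand at the ends.

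No gene of the adherens junction, the other place of β-catenin, passed. Of 17 tested, 12 had a log2 fold change above 0, beside 6716 of all 12682 tested genes, and the median was 0.05. At an unadjusted p under 0.05, 3 were higher and 0 lower, beside 4.11% and 5.13% of all. The 3 were CDH1, CTNND1 and JUP. CDH1 encodes E-cadherin, which β-catenin binds. It read 9.78, 9.87 and 9.80 with CTNNB1 siRNA, against 9.59, 9.57 and 9.55 with control siRNA, a log2 fold change of 0.25 (95% interval 0.10 to 0.40, adjusted p = 0.333 from limma). CTNND1 encodes p120-catenin, which holds E-cadherin at the membrane, and read 5.70, 5.71 and 5.64 with CTNNB1 siRNA, against 5.45, 5.22 and 5.57 with control siRNA (adjusted p = 0.472 from limma). CTNNA1, the α-catenin partner of β-catenin, overlapped between the groups, with a log2 fold change of 0.08 (interval -0.09 to 0.25). Other junctions had 0 genes that passed. Of the genes with an unadjusted p under 0.05, DSC2, a desmosomal cadherin, had a log2 fold change of 0.23 (adjusted p = 0.491 from limma) and CLDN4, a tight junction claudin, one of 0.25 (adjusted p = 0.442 from limma). The median was 0.07 over 13 tested desmosome genes and -0.02 over 15 tight junction genes, of which 8 were below 0.

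In the lists for the epithelial state of the cells 0 genes passed. Of 13 tested genes of basal keratinocytes, 0 had an unadjusted p under 0.05, beside 9.24% of all tested genes. KRT5, the keratin of the basal layer, had a log2 fold change of -0.05 (interval -0.20 to 0.10). Of 12 tested genes of squamous differentiation, ELF3 alone was higher at that p, and CSTA, which fell, is not in that list. Among 14 tested factors and genes of epithelial to mesenchymal transition, 11 had a log2 fold change above 0 (6716 of all 12682 tested genes did) and the median was 0.10. FN1 and LOX, an enzyme that crosslinks collagen, were higher at that p, and neither passed. VIM, the gene of the mesenchymal filament vimentin, overlapped between the groups, at a log2 fold change of -0.01 (interval -0.17 to 0.16). Of 7 tested surface markers of stem cells, 0 had such a p, and CD44, an adhesion receptor on many carcinoma cells, was at 0.01 (interval -0.13 to 0.16).

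Over all 33 pathway lists examined, 664 genes were tested and 2 passed at the wide threshold, CTNNB1 and HMOX1. At an unadjusted p under 0.05 there were 69 of them (10.4%), beside 9.24% of all tested genes. The interval lay inside a 1.5-fold change for 636 (95.8%). Medians of the 32 lists with at least 3 tested genes ran from -0.10 to 0.10. Genes of the cell cycle, which is driven by β-catenin in many tissues, stayed close to control. Of 57 genes of G1/S and DNA replication and 78 of G2 phase and mitosis, 0 passed, the medians were -0.02 and -0.01, and all intervals lay inside 1.5-fold. The lowest were TYMS (thymidylate synthase) at -0.38, with 8.88, 8.79 and 9.04 against 9.30, 9.23 and 9.31 on the control arrays, and TOP2A (topoisomerase IIα) at -0.35, with 10.10, 10.01 and 10.06 against 10.38, 10.39 and 10.45. Both fell short of the test (adjusted p = 0.252 and 0.209 from limma).

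No gene of the interferon response passed. Of 37 tested, 28 had a log2 fold change below 0, beside 47.0% of all tested genes. At an unadjusted p under 0.05, 6 were lower and 0 higher, beside 5.13% and 4.11% of all, and the median was -0.10. IFI6, an interferon-induced mitochondrial protein, read 9.36, 9.03 and 9.31 with CTNNB1 siRNA, against 9.92, 9.49 and 9.56 with control siRNA (log2 fold change -0.42, adjusted p = 0.442 from limma). IFI44L read 5.43, 5.00 and 5.19 with CTNNB1 siRNA, against 5.88, 5.88 and 5.49 with control siRNA (log2 fold change -0.54, adjusted p = 0.367 from limma). The interval reached beyond 1.5-fold for 8 of the 37. Cytosolic sensors of double-stranded RNA overlap this list, through OAS2 among others, and had a median of -0.10 over 9 tested genes. The RNA interference machinery, which siRNA engages, had a median of -0.01 over 12 tested genes, of which 0 passed.

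Some further lists held genes with an unadjusted p under 0.05, beside 4.11% of all tested genes higher and 5.13% lower. NRF2 targets had 1 gene that rose, HMOX1, and 3 higher and 1 lower at an unadjusted p under 0.05. GCLM, a subunit of the enzyme that starts glutathione synthesis, was at 0.26 and AKR1C3, an aldo-keto reductase, at 0.21, while PGD of the pentose phosphate pathway was at -0.32, and these 3 did not pass. Genes of cholesterol and fatty acid synthesis had 5 higher and 1 lower of 26 at that p, with a median of 0.10. HMGCS1, an early enzyme of the mevalonate pathway, read 8.03, 8.02 and 7.96 with CTNNB1 siRNA, against 7.63, 7.78 and 7.85 with control siRNA, and INSIG1, which holds back that pathway, was at -0.26 (adjusted p = 0.418 and 0.367 from limma). Regulators of apoptosis had 4 lower and 0 higher of 18, BAX, CASP8, MCL1 and PMAIP1. PMAIP1 (NOXA) read 7.47, 7.54 and 7.54 with CTNNB1 siRNA, against 7.80, 7.92 and 7.93 with control siRNA (log2 fold change -0.36, adjusted p = 0.211 from limma). Of 33 targets of YAP and TAZ, coactivators of the Hippo pathway, 3 were higher and 0 lower at that p. ANKRD1, a nuclear ankyrin repeat protein among them, read 6.63, 6.76 and 6.76 with CTNNB1 siRNA, against 6.18, 6.33 and 6.18 with control siRNA (log2 fold change 0.49, adjusted p = 0.175 from limma).

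Some further changes did not pass, and those of ELF3 and IL1A were smaller than any called change. The largest falls under the naming rule were MIR548K at -0.82, APOC4-APOC2 at -0.81, and H3C7 and CTBP2 at -0.75. Their adjusted p lay between 0.209 and 0.498 from limma. MIR548K and APOC4-APOC2 were above the array median on only 1 array. TSPAN2, a tetraspanin, read 5.38, 6.03 and 6.13 with CTNNB1 siRNA, against 4.68, 4.99 and 5.24 with control siRNA. Its log2 fold change of 0.87 exceeded that of HMOX1, but the wells spread far and the adjusted p was 0.334 from limma. ABCA1, which exports cholesterol from cells, read 5.50, 5.74 and 5.60 with CTNNB1 siRNA, against 5.07, 4.89 and 4.85 with control siRNA (log2 fold change 0.68, adjusted p = 0.152 from limma). ELF3, an epithelial ETS factor, read 7.23, 7.27 and 7.06 with CTNNB1 siRNA, against 6.70, 6.60 and 6.73 with control siRNA (log2 fold change 0.51, adjusted p = 0.175 from limma). SNHG3, a host transcript of small nucleolar RNAs, read 6.91, 6.69 and 6.86 with CTNNB1 siRNA, against 7.36, 7.55 and 7.51 with control siRNA. Its log2 fold change was -0.65 (adjusted p = 0.138 from limma), and the small nucleolar RNAs SNORD56B and SNORD93 stood at -0.74 and -0.73 (adjusted p = 0.117 and 0.217 from limma). IL1A, an epithelial alarm cytokine, read 10.02, 9.91 and 9.94 with CTNNB1 siRNA, against 10.32, 10.46 and 10.41 with control siRNA (log2 fold change -0.44, adjusted p = 0.175 from limma).

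How many genes passed differed between fits, and the cause was not tested. With 1 fit over all 18 arrays of the series in 6 groups, which borrows the spread of the ICG-001 experiment, 10 genes were higher and 64 lower at the wide threshold, and all 11 genes above were among them. The other 63 include CBY1 and FN1 with higher levels (adjusted p = 0.013 and 0.02) and IL1A, PMAIP1, PGD, SNHG3 and SNORD93 with lower ones (adjusted p between 0.0084 and 0.027). LEF1, DKK1, CDH1 and JUP were not among them. That fit assumes that the siRNA wells vary as the ICG-001 and DMSO wells of HSC-3 and of a second line, CAL27, do.

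The response to ICG-001 in the same line was set beside the knockdown, since both act on β-catenin, one on its transcript and the other on 1 of its partners. The 2 pairs of groups share no array. They were normalized apart and differ in the agent and its dose, so only changes within each pair were compared. ICG-001 called 1217 genes higher (9.02% of its 13493 tested genes) and 1080 lower (8%) at the strict thresholds, where the knockdown called 1. The median size of a log2 fold change was 0.076 for the knockdown, beside 0.26 for ICG-001, and the median standard errors were alike, at 0.082 and 0.087. In a fit of the 4 HSC-3 groups, the knockdown response minus the ICG-001 response was called at the strict thresholds for 2070 of 12278 genes (16.9%), with 8.43% higher and 8.43% lower.

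The log2 fold change of CTNNB1 itself was -3.06 in the knockdown and -0.30 on ICG-001 (adjusted p = 0.0105 from limma), a difference of -2.76 (adjusted p = 4.03e-07). Of the 10 other genes that passed in the knockdown, 3 moved the same way on ICG-001 at the wide threshold, where ICG-001 called 24.2% of its genes higher and 23.6% lower. HMOX1 was at 0.81 in the knockdown and 1.09 on ICG-001, GEMIN5 at -0.83 and -0.67, and NACC1 at -0.68 and -0.52. The differences for these 3 genes did not pass (adjusted p = 0.158, 0.162 and 0.172 from limma). The reverse held for CDS2 and TMEM263, which fell in the knockdown and rose on ICG-001, at -1.01 and 0.24 for CDS2 (difference -1.25, adjusted p = 6.25e-06 from limma) and at -0.72 and 0.37 for TMEM263 (difference -1.09, adjusted p = 1.55e-05). M6PR, CSTA, SLC12A4, ZNF22 and SLC15A4 fell in the knockdown and did not pass on ICG-001, and the difference passed at the wide threshold for all 5, as it did for 41% of all genes tested for it (20.8% higher and 20.1% lower). CSTA, for example, was at -0.71 in the knockdown and 0.17 on ICG-001 (difference -0.88, adjusted p = 1.67e-05 from limma).

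The lists with the largest ICG-001 medians had medians near 0 in the knockdown. They were picked by their ICG-001 values, which the difference contains. How often the difference passed in them follows in part from that choice and is no further support. Of all tested genes, 0.0789% were lower in the knockdown and 23.6% on ICG-001 at the wide threshold, and the difference passed for 41%. In G2 phase and mitosis, 0 of 78 genes fell in the knockdown and 76 on ICG-001 at that threshold, with medians of -0.01 and -1.10. The difference passed for all 78. In G1/S and DNA replication the medians were -0.02 in the knockdown and -0.93 on ICG-001, and the difference passed for 54 of 57. SKP2, which targets CDK inhibitors for degradation, was at -0.01 in the knockdown (interval -0.19 to 0.16) and at -1.60 on ICG-001 (difference 1.59, adjusted p = 1.85e-06 from limma). BIRC5, the gene of survivin, was at 0.07 (interval -0.08 to 0.22) and -1.07 (difference 1.14, adjusted p = 3.19e-06 from limma). The paper names SKP2 and BIRC5 as lowered by ICG-001 on these same ICG-001 arrays, so their differences are no further support. The targets of ATF4, a stress-induced transcription factor, had a median of -0.02 in the knockdown and 0.87 on ICG-001, and the difference passed for 32 of 34. NRF2 targets had medians of 0.05 and 0.71, and the difference passed for 18 of 22, but not for HMOX1.

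**Figure D4:**
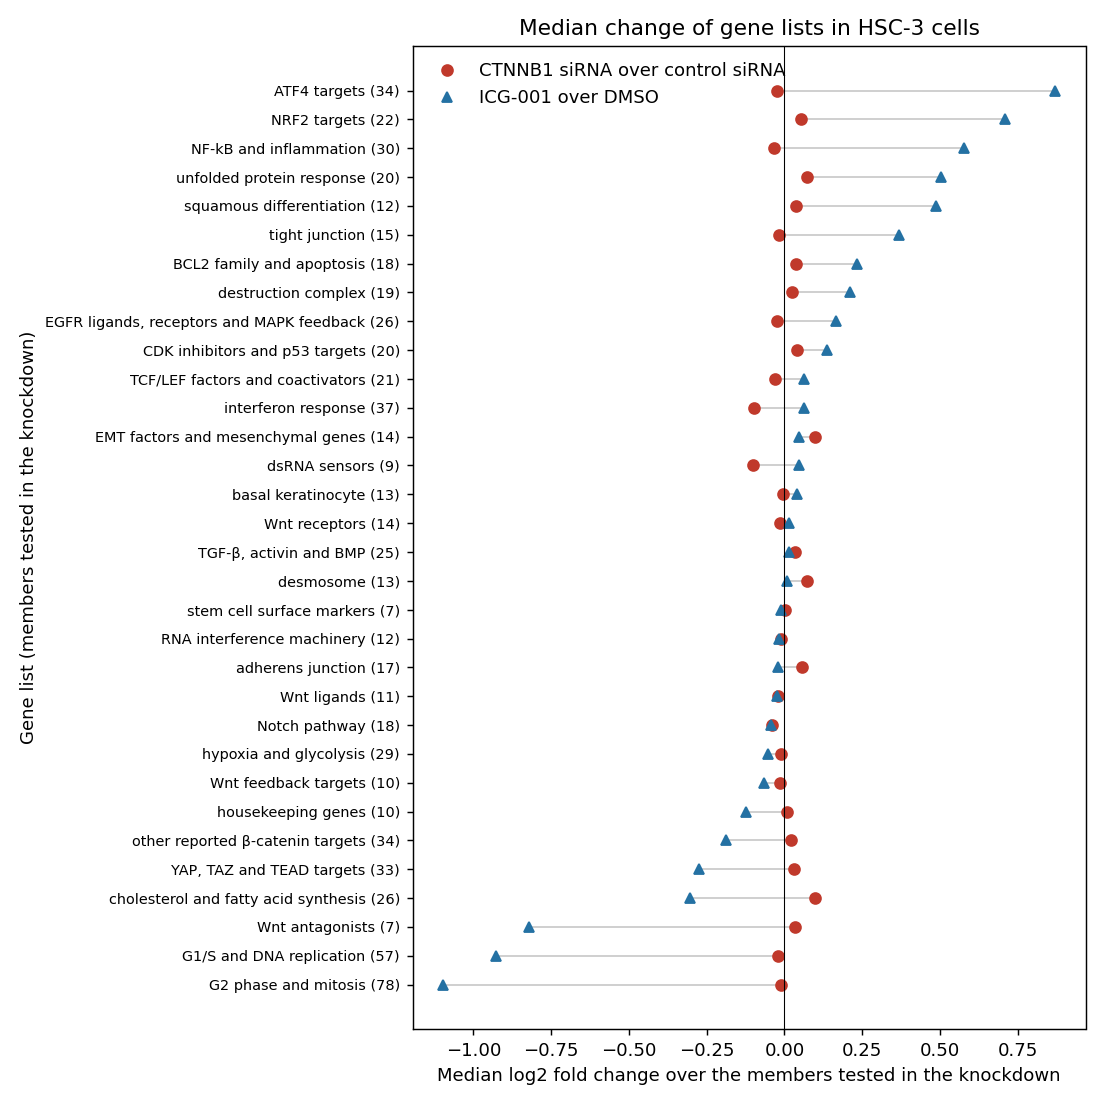
Median log2 fold change (horizontal) over the tested members of the 32 pathway lists with at least 3 of them, for CTNNB1 siRNA over control siRNA (red circles) and ICG-001 over DMSO (blue triangles), with the number of members in brackets and lists in order of the ICG-001 median. The knockdown medians lie between -0.10 and 0.10 for these lists, and the ICG-001 medians between -1.10 and 0.87.

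Among Wnt targets the difference between the responses passed at the wide threshold for 6 of 10 feedback targets and 20 of 33 other reported targets, beside 41% of all genes tested for it. It did not pass for LGR6, NKD1, KREMEN2 and L1CAM, among others. DKK1 was at 0.03 in the knockdown and -0.82 on ICG-001 (difference 0.85, adjusted p = 2.76e-05 from limma), and CCND2, a G1 cyclin, at -0.07 and -1.09 (difference 1.02, adjusted p = 2.54e-05). LEF1 was at -0.41 and -1.21, and this difference passed as well (0.80, adjusted p = 0.00638 from limma). CDH1, the gene of E-cadherin, was among the many genes for which the difference did not pass (0.04, adjusted p = 0.733 from limma). It was at 0.25 in the knockdown, where it did not pass either, and at 0.21 on ICG-001. CLDN4 was at 0.25 and 1.17 (difference -0.92, adjusted p = 0.000439 from limma). The paper names DKK1, CCND2 and LEF1 as lowered by ICG-001, and CLDN4 as raised, on these same ICG-001 arrays. Their differences contain those values and are no further support. ELF3, at 0.51 in the knockdown, was at 2.50 on ICG-001 (difference -1.99, adjusted p = 6.49e-07).

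Across all genes tested in both, the changes ran weakly together. Over 12278 genes the correlation was 0.119 (Pearson) and 0.125 (Spearman), where the genes of 1 experiment share its arrays and are not independent. Of 1094 genes that ICG-001 called higher, 716 (65.4%) had a log2 fold change above 0 in the knockdown, beside 53.1% of all 12278, and their median was 0.047. At an unadjusted p under 0.05, 107 of the 1094 (9.78%) were higher in the knockdown, beside 4.06% of all. Of 1059 genes that ICG-001 called lower, 587 (55.4%) were below 0 in the knockdown, beside 46.9% of all, with a median of -0.01, and 76 (7.18%) were lower at that p, beside 5.12%. In size these knockdown changes were small. On ICG-001 itself, the genes called higher had a median of 0.82 and those called lower one of -0.80. These genes were chosen for a change of 1.5-fold or more on the same ICG-001 arrays, so the ICG-001 medians had to be large. Only 1 gene of each kind passed in the knockdown at the wide threshold, HMOX1 and GEMIN5.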

How the data were processed

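RNA of HSC-3 wells was hybridized to Human Gene 2.0 ST arrays (Affymetrix). The authors deposited log2 values made by robust multi-array average (RMA), with affy 1.36.1 in R 2.15.1 by the sample records, which corrects background, equalizes array distributions and summarizes the probes of each gene. Equalized distributions hide any shift common to all genes. The siRNA arrays were normalized with further arrays not used here, apart from the ICG-001 arrays. The genome build of the probe annotation was not stated. Of 23786 probesets, each named by an Entrez number, 22458 had 1 symbol in the platform annotation and 1328 are unnamed here. The table held 0 other columns of per-sample values.

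Groups came from the titles. Tests were two-sided and run with limma 3.58.1 (R 4.3.3), with variances moderated over all probesets and Benjamini-Hochberg adjustment over genes that any 1 array of the set had above its median (12682 for the knockdown). The thresholds were those of the study's methods, an adjusted p of at most 0.01 and 1.5-fold, and a wider adjusted p of 0.05. The difference between responses was the contrast of 4 HSC-3 groups. The number of arrays limits the precision. Replicate numbers did not pair the wells.

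Genes were named by rule: CTNNB1 and JUP, all genes called and, for each list, up to 4 members, those of smallest adjusted p. The rule added the Wnt, proliferation and adhesion genes the paper names and the 10 largest changes in each direction that did not pass. Those 10 were drawn only from genes with an unadjusted p under 0.05, no overlap between the groups and a symbol that is not provisional. Their separation is therefore part of the choice. The text gives a part of the genes so named. Other members of the lists were named after their values were seen. The comparison and the 42 gene lists (33 of pathways, the others of markers and of genes the paper names) were chosen with earlier results of these data known. Promoters came from RefSeq (GRCh38.p14). Alternatives were other filters, priors, normalizations, array weights, 1 fit over 18 arrays, a replicate block and leaving out each array. The steps were tested on simulated data.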

Additional observations from a re-analysis of the deposited data

How the results depend on the processing

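CTNNB1 fell under all alternatives, with a log2 fold change of -3.15 to -2.93 when single arrays were left out. Its adjusted p stayed within 0.01 except with the replicate block and without any 1 control array (0.0117 to 0.0135), so that the strict count of lower genes was between 0 and 1 without single arrays. At the wide threshold, leaving out any single array left 0 genes higher and 1 lower, CTNNB1. These fits test fewer arrays. No intensity filter, which adjusts over more genes, left 0 higher and 2 lower. A trend and robust prior called 1 gene higher and 11 lower at the strict thresholds, and 26 higher and 114 lower at the wide one. For 1 fit over all 18 arrays the numbers were 1 and 12, and 10 and 64. Equal array medians gave 6 lower at the wide threshold, and variances moderated over the filtered genes only, an alternative chosen after seeing the data, gave 3 lower at the strict thresholds. The cause of these shifts was not tested. All 11 genes called at the wide threshold were also called with the trend and robust prior, with the 18 arrays, with cyclic loess, with array weights and with a filter of 3 arrays, and the 10 other than CTNNB1 kept their direction in 15 of 15 alternatives each.

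A fit with the replicate number as a block left 0 genes called at the strict thresholds and, at the wide one, 0 higher and 1 lower, CTNNB1 (log2 fold change -3.06, adjusted p = 0.0197 from limma). Deviations from the group means correlated between arrays of the same number at -0.0074, 0.041 and 0.045, so the numbers gave no pairing. For ICG-001 and for the difference, no alternative moved a count by over 1.5 times. A gene below the median on all 6 arrays, such as AXIN2, was out of reach of the test.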

Other observations

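Genes of inflammation and of hypoxia held values in both directions, and 0 of them passed at the wide threshold. Of 30 tested genes of the NF-kB response, 22 had a log2 fold change below 0, beside 47.0% of all tested genes, with a median of -0.03. At an unadjusted p under 0.05, 2 were higher (C3 and CCL5) and 3 lower (CXCL8, IL1A and NFKBIZ), beside 4.11% and 5.13% of all. CCL5, a chemokine for T cells, read 6.92, 6.87 and 6.77 with CTNNB1 siRNA, against 6.40, 6.50 and 6.60 with control siRNA (log2 fold change 0.35, adjusted p = 0.272 from limma). Its groups did not overlap, which held for 19.1% of all tested genes. CXCL8, which attracts neutrophils, read 9.98, 9.94 and 9.91 with CTNNB1 siRNA, against 10.20, 10.12 and 10.06 with control siRNA (log2 fold change -0.18, adjusted p = 0.472 from limma).

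Of 29 tested genes of hypoxia and glycolysis, 1 was higher and 3 lower at that p, beside 4.11% and 5.13% of all tested genes. SLC2A3, a glucose transporter, read 6.11, 6.92 and 6.32 with CTNNB1 siRNA, against 5.84, 5.87 and 5.77 with control siRNA, and the second CTNNB1 siRNA array stood well above the other two (log2 fold change 0.62, adjusted p = 0.409 from limma). ALDOC, a glycolytic aldolase, read 4.56, 4.51 and 4.37 with CTNNB1 siRNA, against 4.72, 4.94 and 5.12 with control siRNA (log2 fold change -0.44, adjusted p = 0.343 from limma). Of 25 tested genes of TGF-β, activin and BMP signaling, 3 were higher (FST, TGFB2 and TGFBR3) and 3 lower (ACVR1B, BMP4 and LTBP2) at that p, and of 18 tested genes of the Notch pathway there were 0.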
